A study of Mus musculus with 2 samples.

Results

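The Ly6 genes encode small, cysteine-rich surface proteins, most of them held in the outer membrane by a glycosylphosphatidylinositol (GPI) anchor. The family here was a list of 7 mouse genes, Ly6d, Ly6a, Ly6c1, Ly6e, Ly6h, Ly6k and Ly6g6c, and its members on the array were all probe sets whose only annotated gene symbol is one of these. By that rule 5 of the 7 genes had a probe set, 9 probe sets in all, of 18193 genes and 45101 probe sets on the array. Ly6d was chosen by its signal ratio between the same 2 arrays, so its values are a description. Messenger RNA was measured on Affymetrix mouse expression arrays in whole livers from BALB/c nude mice, which lack a thymus and so have few mature T cells. The labels give 1 sample at day 3 after a 70% partial hepatectomy, called active regeneration, and 1 at day 0, called the control. Both groups share the strain and, per the labels, the operation, while the sources used here do not give age, sex or the number of animals per sample. Each day had 1 array, so values are given without replicates or tests, and effects of the day, the operation and the individual animal cannot be told apart.

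Ly6 proteins fold into a compact domain held by disulfide bonds, which they share with the urokinase receptor (uPAR), the complement regulator CD59 and other members of the wider Ly6/uPAR family. Most of the mouse genes stand in a row on chromosome 15, and a smaller group, with Ly6g6c, lies within the major histocompatibility complex. Immunologists use several of the proteins to mark blood cells: Ly6d marks mouse lymphoid progenitors committed to the B lineage, Ly6a is the stem cell antigen Sca-1, and Ly6c1 belongs to the Ly6C antigen of monocytes and other cells. Interferons induce several members, Ly6a and Ly6e among them, in mouse cells.

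The array read Ly6c1 only together with its neighbour Ly6c2, by 1 probe set annotated to both genes, so no value belongs to Ly6c1 alone. That probe set had a signal of 330.1 at day 3 and 165.3 at day 0, a fold of 1.997. The bases before the transcription starts of these genes are printed as the stretch of sequence at hand for comparing the pair of copies. These bases lie before the annotated starts and so outside the annotated transcripts. Nothing about the shared probe set is read from their likeness. In the RefSeq table (GRCm38.p6) both lie on the minus strand, Ly6c1 at chr15:75048838-75049087 and Ly6c2 at chr15:75111972-75112221. Each is written 5′ to 3′ for the 250 bases before the farthest upstream start in that table, and capitals mark the longest run that both share, 20 bases long.
Ly6c1: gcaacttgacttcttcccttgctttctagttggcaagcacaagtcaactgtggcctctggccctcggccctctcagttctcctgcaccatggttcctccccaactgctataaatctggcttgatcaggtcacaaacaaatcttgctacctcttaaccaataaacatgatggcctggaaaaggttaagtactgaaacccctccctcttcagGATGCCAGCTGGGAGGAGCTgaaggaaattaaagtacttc
Ly6c2: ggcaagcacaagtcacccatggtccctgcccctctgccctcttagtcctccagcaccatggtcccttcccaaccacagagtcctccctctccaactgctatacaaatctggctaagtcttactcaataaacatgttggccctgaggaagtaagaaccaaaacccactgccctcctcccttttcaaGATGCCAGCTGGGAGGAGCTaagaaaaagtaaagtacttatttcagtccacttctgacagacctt
In a global alignment the pair had 164 identical and 52 mismatched bases, or 75.9% identity over aligned bases, and 68 bases stood against gaps. Ly6a had no probe set with 1 symbol in the array annotation and was not analysed here.

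Signals were compared above a floor of 68.3, the higher of the 2 array medians, and all folds are day 3 over day 0. A signal under the floor was set to it, so a fold against such a signal is written as at least that size. Of 12634 genes above the floor on at least 1 array, 12.9% were at least 2-fold higher at day 3 and 5.62% at least 2-fold lower, with a median log2 ratio of 0.08. Among the listed genes, 4 were above the floor, all on both arrays. Ly6d was the 1 of these at least 2-fold higher, the others were under 2-fold, and 0 were at least 2-fold lower. The rule used this contrast for Ly6d, so nothing is read from that count. All 8 hepatocyte marker genes with a probe set, albumin among them, passed the floor on both arrays and stayed under 2-fold (median log2 ratio −0.40). The bacterial poly-A RNAs dap, lys, phe and thr were spiked into each sample, and each was read by more than 1 pair of probe sets. Their ratio of 3′ to 5′ signal was higher at day 3 in 8 of 8 pairs, by 1.32 to 2.90 times. The part of this difference in the values of the Ly6 genes was not tested.

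Ly6d had a signal of 7433 at day 3 and 77.9 at day 0. The day 3 array was thus high and the day 0 array close to the floor, at 1.14 times its value. The ratio was 95.5-fold, a log2 ratio of 6.58, at rank 3 of all genes that passed the floor on both arrays. It rests on 1 probe set, 1416930_at, so no second probe set of the gene could be set beside it. The day 0 signal lay near the floor but above it. A lower floor, such as the 25th percentile, therefore gives the same log2 ratio of 6.58 by construction. A floor above the day 0 signal turns the ratio into a bound. At the 75th percentile of signals (424) the log2 ratio was at least 4.13.

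Ly6e, which encodes an interferon-inducible surface protein that limits some virus infections, was the other listed gene with a high signal. Its brighter probe set, 1453304_s_at, had 13782 at day 3 and 9423 at day 0. That is a 1.46-fold higher signal at day 3, a log2 ratio of 0.55. For scale, log2 ratios from different probe sets of the same gene differed with an SD of 0.435 per set over 4380 genes, which reflects probe sets and not animals. The dimmer probe set of Ly6e, 1439773_at, had 171.2 at day 3 and 52.6 at day 0 and was at least 2.51-fold higher. Both probe sets had the higher signal at day 3, and they differed in size.

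The remaining listed genes had signals near or under the floor on both days. Ly6k, a testis gene needed for mouse male fertility, had 68.5 at day 3 and 72.1 at day 0 on 1452855_at. Its log2 ratio was −0.07, or 0.01 after scaling to the hybridisation spikes, which raised the median of all genes from 0.08 to 0.36. Its second probe set had 37.1 at day 3 and 13.4 at day 0, both under the floor. Ly6h, a brain gene whose product acts on nicotinic acetylcholine receptors, had 10.96 at day 3 and 1.96 at day 0, both well under the floor, so no fold is given.

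Ly6g6c had 3 probe sets that did not go one way. On 1449789_x_at its signals were 91.0 at day 3 and 87.6 at day 0, a log2 ratio of 0.05. On 1422749_at they were 20.1 at day 3 and 84.2 at day 0, at least 1.23-fold lower. On 1441851_x_at they were 25.3 at day 3 and 16.7 at day 0, both under the floor. The values of this gene therefore lay around the floor, with no direction shared by the sets.

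Set against the others, the log2 ratio of Ly6d exceeded the median of the other 3 listed genes above the floor (0.05) by 6.52, a difference without a test. The plot of all probe sets of the listed genes shows the Ly6d pair spread over the full range between the floor and the high signals. Gaps are small for the brighter sets of Ly6e and Ly6k. Wider gaps that reach under the floor appear for Ly6h, the dimmer sets of Ly6e and Ly6k, and a set of Ly6g6c.

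**Figure D1:**
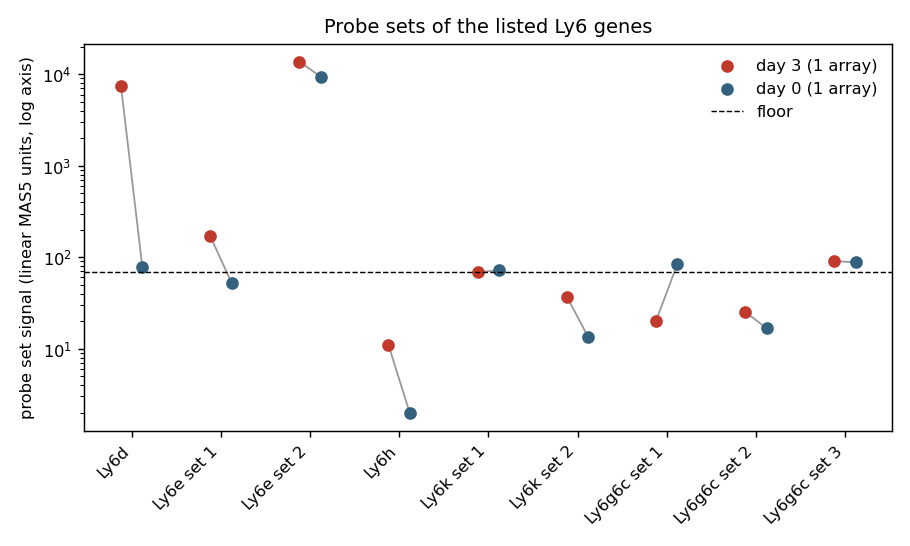
Signals of the 9 probe sets of the listed Ly6 genes on a log axis, day 3 in red left of day 0 in blue, 1 array each, with the floor of 68.3 dashed. Ly6d had 7433 at day 3 and 77.9 at day 0, while sets of Ly6h, Ly6k and Ly6g6c lay near or under the floor.

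The wider Ly6/uPAR family was described by a list of 46 genes, of which 30 had a probe set with 1 symbol and 15 were above the floor on at least 1 array. Of these 15, 2 were at least 2-fold higher (Ly6d and Plaur), 1 was at least 2-fold lower (Cd59a) and 12 were under 2-fold. The shares were 13.3% and 6.67%, near the 12.9% and 5.62% of all genes, and the median log2 ratio was 0.02 against 0.08. Without the 7 listed genes, 1 of 11 was at least 2-fold higher and 1 of 11 at least 2-fold lower, with a median of −0.05.

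Plaur encodes uPAR, the cell surface receptor that focuses urokinase and so plasmin formation. Its signal was 173.8 at day 3 and 77.6 at day 0, a 2.24-fold higher value at day 3. Its 1 probe set is marked as shared between transcripts. Cd59a encodes the GPI-anchored inhibitor of the complement membrane attack complex. Its brighter probe set had 2120 at day 3 and 5312 at day 0, 2.51-fold lower, and its other probe set had 1171 at day 3 and 2759 at day 0, with a log2 ratio of −1.24. Both sets of Cd59a thus had the lower signal at day 3, and its log2 ratio stayed between −1.34 and −1.03 in 9 alternative settings.

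Gpihbp1, which carries lipoprotein lipase across the capillary wall, had 844 at day 3 and 951 at day 0. Its log2 ratio of −0.17 turned to 0.12 after scaling to the hybridisation spikes, where the median of all genes was 0.36. Ly6g2 had 1368 at day 3 and 2151 at day 0, 1.57-fold lower. Lynx1, a modulator of nicotinic receptors, had 173.2 at day 3 and 154.4 at day 0 on its brighter probe set, and log2 ratios of 0.17 and −0.40 on its 2 sets. Lypd1 had 81.0 at day 3 and 89.7 at day 0. None of these 4 genes passed 2-fold.

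The other 5 genes above the floor passed it on 1 array only, so their folds are bounds. Ly6f had 106.8 at day 3 and 30.4 at day 0, at least 1.56-fold higher, and a floor at the 25th percentile gave a log2 ratio of 1.81. Lypd3, a relative of uPAR found in squamous epithelia, had 91.1 at day 3 and 33.0 at day 0, at least 1.33-fold higher. Ly6m had 69.1 at day 3 and 4.80 at day 0, at least 1.01-fold higher. Lypd9 had 35.7 at day 3 and 70.7 at day 0, and the sperm gene Spaca4 had 9.85 at day 3 and 74.5 at day 0, bounds of 1.04-fold and 1.09-fold lower. The bars of the family's log2 ratios show Ly6d apart from the other 14 genes, which lay between −1.33 and 1.16.

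**Figure D2:**
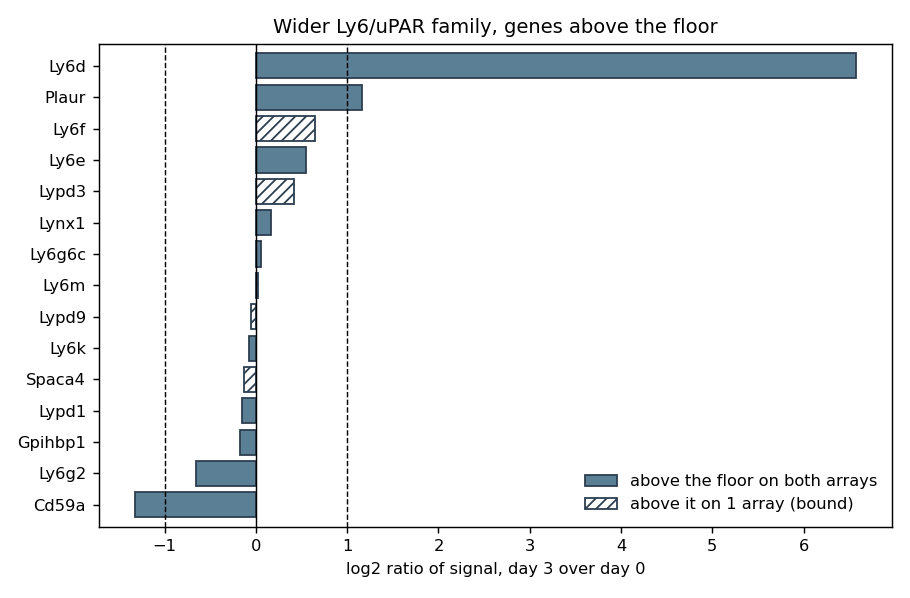
Log2 ratio of signal, day 3 over day 0, for the 15 genes of the wider Ly6/uPAR list above the floor on an array. Filled bars are genes above it on both arrays, hatched bars are bounds, and dashed lines mark 2-fold; Ly6d stands at 6.58, Plaur at 1.16 and Cd59a at −1.33.

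The neighbours of Ly6d in the RefSeq gene order (GRCm38.p6) did not share its ratio. Lynx1, next to it on one side, was under 2-fold as given above. Ly6g6g, next to it on the other side, had 2.76 at day 3 and 20.1 at day 0, both under the floor. Slurp1, which encodes a secreted Ly6 protein of skin and stands 4 places away, had 55.7 at day 3 and 22.8 at day 0, and Psca, the prostate stem cell antigen gene at 6 places, had 15.9 at day 3 and 7.81 at day 0. Between Ly6k and Ly6m stand the steroid hydroxylase genes Cyp11b1 and Cyp11b2, which had 34.3 and 6.60 at day 3 and 5.19 and 68.5 at day 0. The 1 neighbour in the plotted stretch besides Ly6d that was at least 2-fold higher was Jrk, 7 places away, with 197.8 at day 3 and 4.83 at day 0 (at least 2.90-fold). Ly6i had 10.97 at day 3 and 57.1 at day 0, under the floor on both arrays.

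**Figure D3:**
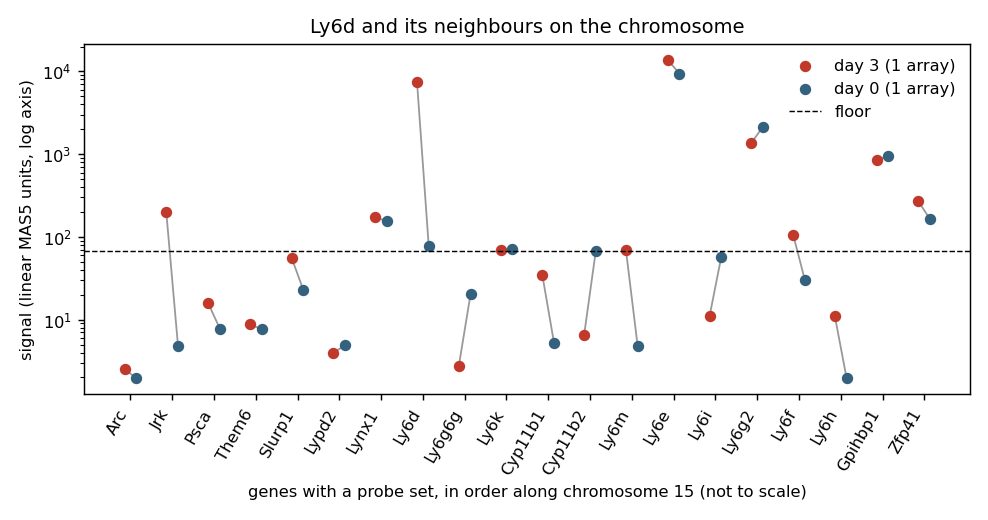
Signals at day 3 (red, left) and day 0 (blue, right) of the genes with a probe set around Ly6d, in their order along chromosome 15 and not to scale, on a log axis with the floor of 68.3 dashed. The signal of Ly6d was 7433 at day 3, while Lynx1, Ly6g6g and Ly6k beside it lay at or below 173.2.

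Among genes that passed the floor on both arrays, the 5 with ratios nearest to that of Ly6d were Ube2c, Cdc20, Mki67, Birc5 and Rrm2. Genes under the floor on an array were left out by this rule, however close their ratios. Prom1 was such a gene, with 6351 at day 3, 65.7 at day 0 and a log2 ratio of at least 6.54. With 2 samples the measure of likeness is the difference of log2 ratios alone. It was 0.03 for Ube2c, a ubiquitin-conjugating enzyme of mitosis with 9698 at day 3 and 99.3 at day 0. It was 0.56 for Cdc20, an activator of the anaphase-promoting complex with 8833 at day 3 and 136.6 at day 0, and 0.66 for the proliferation marker Mki67 (4780 at day 3 and 79.2 at day 0). For Birc5, which encodes survivin, it was 0.86, and for Rrm2, a ribonucleotide reductase subunit gene, 1.43.

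Markers of the cells that carry Ly6 proteins are given beside these values. Of 14 B-lineage markers with a probe set, 9 were above the floor, with 1 at least 2-fold higher (11.1%, beside 12.9% of all genes), 2 lower (22.2%, beside 5.62%) and a median log2 ratio of −0.54. Their summed signal was 1843 at day 3 and 2269 at day 0. The progenitor genes Vpreb1, Rag1 and Pax5 were under the floor on both arrays, with 28.6, 1.81 and 31.3 at day 3 and 13.1, 38.1 and 9.28 at day 0, as were Cd79a and Ebf1. Above it on both arrays was Blnk, the brightest of the list at day 3, with 727.0 at day 3 and 619.1 at day 0. So were Cd22, with 113.6 at day 3 and 111.4 at day 0, and Cd79b, with 69.2 and 101.2. The surrogate light chain gene Igll1, with 73.4 at day 3 and 71.4 at day 0, was above it on both as well. Vpreb3 was too, with 76.7 at day 3 and 111.6 at day 0. Cr2, the complement receptor of mature B cells, had 364.7 at day 3 and 63.4 at day 0 (at least 5.34-fold higher). The immunoglobulin gene Ighm had 202.3 at day 3 and 796.3 at day 0 (3.94-fold lower). Its other sets above the floor on both arrays gave log2 ratios of −1.93, −1.48 and 0.43. Dntt, the terminal transferase of lymphoid progenitors, was at least 2.11-fold lower by its main set, while a second set gave a log2 ratio of −0.59 and another one of at least 0.33.

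Ly6d is also known from squamous epithelium and urothelium. Of 17 markers of these with a probe set, 11 were above the floor, 2 of them at least 2-fold higher and 2 lower (median −0.13). That is 18.2% each way, beside 12.9% and 5.62% of all genes. The list had a summed signal of 2120 at day 3 and 1432 at day 0. The basal keratin genes Krt5 and Krt14 and the transcription factor gene Trp63 had 66.0, 18.5 and 27.3 at day 3 and 104.4, 71.0 and 75.9 at day 0. Sprr1a, a cornified envelope gene, had 832.9 at day 3 and 120.2 at day 0 (6.93-fold higher), and Pkp1, a desmosomal plakophilin gene, 357.9 at day 3 and 7.26 at day 0 (at least 5.24-fold higher). Upk2, a urothelial plaque gene, was at least 2.95-fold lower. Krt6a was 2.03-fold lower, while a second set gave −0.02 on the log2 scale. The basal squamous markers were thus under the floor at day 3, while Sprr1a and Pkp1 were above it.

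Markers of cholangiocytes, which line the bile ducts, were read in the same way. Of 9 with a probe set, all above the floor on an array, 7 were at least 2-fold higher and 0 lower, beside 12.9% and 5.62% of all genes, and the median log2 ratio was 1.73. Their summed signal was 8845 at day 3 and 626 at day 0, and 2494 at day 3 and 560 at day 0 without Prom1. Prom1, which encodes the progenitor surface protein prominin 1, had 6351 at day 3 and 65.7 at day 0, at least 93.0-fold higher. Epcam, an epithelial adhesion molecule, was at least 6.57-fold higher, although a second set gave a log2 ratio of −0.06, and Cd24a, a GPI-anchored surface protein, was 8.52-fold higher by its main set, 2.52-fold by a second and at least 3.86-fold by another. Keratin genes Krt19 and Krt7 had 270.9 and 176.5 at day 3 and 81.8 and 57.0 at day 0. Sox9 had 146.0 at day 3 and 78.1 at day 0, and Cldn4 had 34.0 at day 3 and 85.4 at day 0. A floor at the 75th percentile left 2 of the markers at least 2-fold higher, and removal of probe sets marked as shared left 4. That mark includes sets shared between transcripts, so the removal took out Prom1, Krt7 and the main sets of Epcam and Cd24a. The shares of all genes in these settings are not given here. The part of these cells in the value of Ly6d was not tested, and in whole tissue more cells of a type and more RNA per cell cannot be told apart.

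Blood cells that carry other Ly6 antigens were read by their own markers. Of 10 monocyte and macrophage markers 8 were above the floor and 5 at least 2-fold higher (62.5%, beside 12.9% of all genes), with a median of 1.22 and a summed signal of 11415 at day 3 and 5168 at day 0. That count was 2 with a floor at the 75th percentile, 7 after scaling to the hybridisation spikes and 0 at 4-fold. Spike scaling shifted genes in general upward: their median log2 ratio was 0.36, against 0.08 without it. Since no all-gene share is given for these settings, nothing about the markers is read from the changes in their count. Lyz2, lysozyme, was 3.88-fold higher, the macrophage gene Cd68 3.01-fold and Plac8 2.85-fold, while the inflammatory monocyte receptor gene Ccr2 had 88.7 at day 3 and 94.7 at day 0. Of 10 neutrophil markers 5 were above the floor and 2 at least 2-fold higher (40.0%, beside 12.9%). These were S100a8 and S100a9, the calprotectin genes, at least 8.57-fold and 4.98-fold higher. The list had a median of 0.34 and a summed signal of 1651 at day 3 and 547.9 at day 0. The granule genes Mpo, Ltf and Camp were under the floor on both arrays, while Elane had 110.8 at day 3 and 87.8 at day 0 and Ngp 57.7 at day 3 and 90.0 at day 0. Of 8 T and NK cell markers 2 were above the floor and 0 passed 2-fold (median 0.02), with a summed signal of 243.9 at day 3 and 315.0 at day 0, and the CD3 genes Cd3e, Cd3g and Cd3d were under the floor on both arrays.

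All 11 endothelial markers lay above the floor on both arrays and under 2-fold (median 0.15), with a summed signal of 9042 at day 3 and 10338 at day 0. Of 6 markers of haematopoietic progenitors, which Sca-1 also marks, 2 were at least 2-fold higher (33.3%, beside 12.9% of all genes), with a median of 0.29 and a summed signal of 915 at day 3 and 593 at day 0. These were Cd34, a progenitor and endothelial surface protein gene (3.29-fold), and the transcription factor gene Meis1 (at least 2.64-fold, and a log2 ratio of at least 0.12 by a second set). Kit, the stem cell factor receptor gene, had 147.2 at day 3 and 102.0 at day 0.

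Interferon-stimulated genes were read because interferons induce Ly6e. Of 25 with a probe set, 3 were at least 2-fold higher and 0 lower, a share near the 12.9% of all genes, with a median log2 ratio of 0.07. These were the chemokine gene Cxcl10 (2.39-fold), the GTPase gene Gbp3 (2.21-fold) and the antiviral synthetase gene Oas2 (2.19-fold). Ifit1, an antiviral RNA-binding protein gene, had 413.4 at day 3 and 409.5 at day 0, and Irf7, a transcription factor of the interferon response, had 656 at day 3 and 1186 at day 0.

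The GPI anchor that holds most Ly6 proteins is made in the endoplasmic reticulum. Of 28 genes of its synthesis and remodelling with a probe set, 27 were above the floor, 2 of them at least 2-fold higher and 2 lower, with a median of 0.14. That is 7.41% each way, beside 12.9% and 5.62% of all genes. Piga, the catalytic subunit of the first step, had 1166 at day 3 and 246.1 at day 0 (4.74-fold higher), and the mannosyltransferase gene Pigm was 2.45-fold higher. Pigx, the partner of Pigm, was 2.34-fold lower, and its second set gave a log2 ratio of at most −0.24. Pigt, of the transamidase that attaches the anchor, was at least 2.77-fold lower by its main set, while a second set gave a log2 ratio of 0.19. Gpld1, a circulating enzyme that cuts GPI anchors, had 9179 at day 3 and 12982 at day 0.

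Partners of the wider family were read as well. Of 10 such genes 9 were above the floor, with 2 at least 2-fold higher (22.2%, beside 12.9% of all genes), 1 lower (11.1%, beside 5.62%) and a median of −0.09. Lpl, the lipoprotein lipase that Gpihbp1 binds, had 8437 at day 3 and 1578 at day 0 (5.35-fold higher), and a second set gave a log2 ratio of 1.80. Plau, the urokinase that uPAR binds, had 34.5 at day 3 and 5.56 at day 0, both under the floor. Of the complement proteins that CD59 holds back, C8b was 3.30-fold lower, while C8a had 16829 at day 3 and 24249 at day 0 and C9 had 27746 at day 3 and 26869 at day 0. Cd14, a GPI-anchored receptor for bacterial lipopolysaccharide, had 1918 at day 3 and 199.5 at day 0, 9.61-fold higher.

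**Figure D4:**
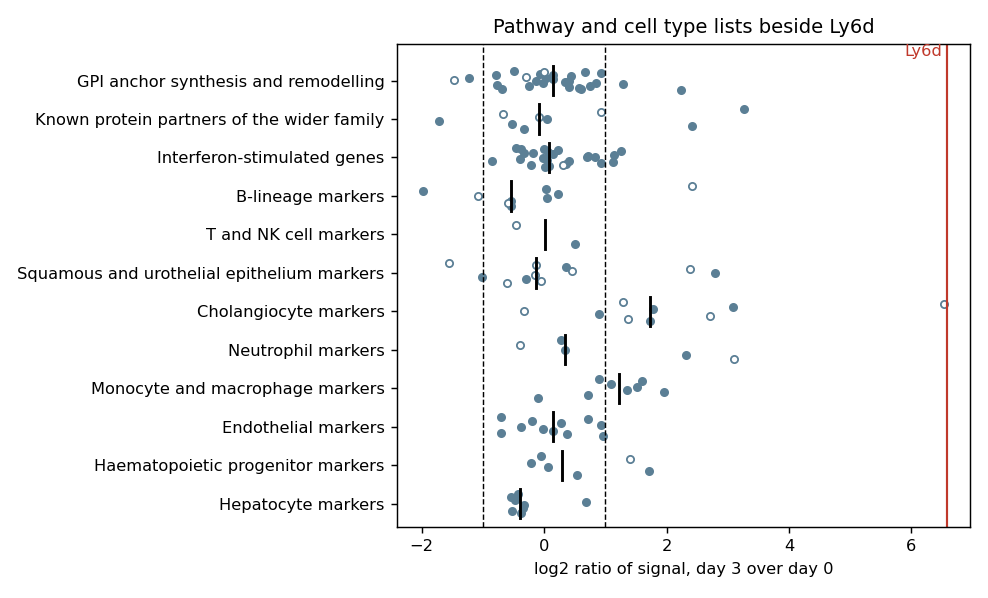
Log2 ratio of signal, day 3 over day 0, of each gene above the floor in the pathway and cell type lists, with filled points above it on both arrays, open points as bounds and black bars as list medians. The red line is Ly6d at 6.58, dashed lines mark 2-fold, and the cholangiocyte gene Prom1 lies next to the line at 6.54.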

How the data were processed

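The authors deposited linear intensity values, 1 for each probe set, and the submitters' processing notes name GCOS and MAS5 without versions or a scaling target. The mean after trimming 2% at each end was 500.0 on both arrays. Because MAS5 subtracts a mismatch signal from each perfect match, dim probe sets are noisy. Detection calls were not used here.

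Gene symbols came from the supplied array annotation: 34945 had 1 symbol, 932 several and 9160 none, besides 64 controls. The gene IDs of 34741 were found in RefSeq, and 0 symbols differed. No genome build is named in the values.

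The probe set of highest mean log2 signal, after the floor, stood for its gene. The members, the lists and the naming rule were chosen with earlier results of these data known. The named genes were all listed members, family genes above the floor or past 2-fold, and the 5 nearest to Ly6d. For these 5, clone and predicted-gene symbols were left out. Up to 3 genes past 2-fold in each direction per list were named too, with low markers. Additional genes, among them the neighbours of Ly6d, Irf7, Gpld1, Sox9, Krt7, Krt19 and C9, were chosen after their values were seen. The settings also tried were centring on the median, loess (fraction 0.3), quantile normalisation, spike scaling, floors at the 25th and 75th percentile, 16 added without a floor, the mean over probe sets, removal of shared probe sets, and 1.5-fold or 4-fold as the threshold. Simulated data with known ratios served to test the computation. Python 3.11.15 and pandas 2.3.3 were used.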

Additional observations from a re-analysis of the deposited data

How the results depend on the processing

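Ly6d was chosen on its day 3 to day 0 ratio, and all settings reworked the same 2 arrays. Nothing is therefore read from its kept direction. Its log2 ratio ran from 4.13 to 6.77 in 9 alternative settings. The lowest came with the floor at the 75th percentile, where 2 listed genes were analysed and its difference from the other was 3.58. The difference was 6.01 with 16 added and no floor. In both settings more or fewer genes were read, and the floor or the added 16 bounds the ratio by construction. The number of listed genes at least 2-fold higher was 1 in 10 of 11 settings and 2 without shared probe sets, where the dimmer set represented Ly6e with a log2 ratio of 1.33. It was 0 for lower genes in 11 of 11 settings. Nothing is read from the count of higher genes, since Ly6d was chosen on this contrast.

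Of the wider family, 6 genes were at least 2-fold higher and 3 lower with the floor at the 25th percentile (23 analysed), 5 and 4 with 16 added (30 analysed), and 1 was higher with the floor at the 75th percentile (5 analysed). At 1.5-fold, 2 were lower, and at 4-fold 1 was higher and 0 lower. The shares of all genes in these settings are not given here, so nothing about the family is read from these counts. The family's median stayed between −0.17 and 0.35. Its highest value came with spike scaling, where the median of all genes was 0.36. Settings for Cd59a, Plaur, Ly6g2, Ly6f, Gpihbp1, Prom1 and for the cholangiocyte and monocyte lists were added after seeing the data. The 1 array per day limits every value, and signals near the floor of 68.3 limit Ly6k, Ly6g6c and the day 0 value of Ly6d.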
